A study of Mus musculus with 33 samples.

Results

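The VH1 family, also called J558, is the largest family of variable gene segments of the mouse immunoglobulin heavy-chain (Igh) locus, and its genes fill the part of the VH gene cluster that lies farthest from the DH and JH segments. The genes described here are the rows named IGHV1- that stand in the study's list of VH genes, without VH1-72, VH1-53, VH1-62-3, VH1-64 and VH1-62, and they are written below as VH1-18 for IGHV1-18. This gave 87 genes, out of 92 listed VH1 genes, 183 listed VH genes and 230 rows in each file. Their listed positions run from VH1-1 at 115589916 to VH1-86 at 117248165 of chromosome 12 (mm9), on the minus strand, and 54 of the 87 overlap a gene of the GENCODE M1 annotation, of which 52 are classed there as immunoglobulin V genes.

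The cells were immature B cells sorted from bone marrow of mice with the genotype Igh B1-8hi/+ on the C57BL/6 background, which were 4 to 5 weeks old. The sort took cells with surface IgMa, which marks the product of the B1-8hi allele. This allele, of 129 origin, carries a VH1-72 gene already joined to DH and JH, and these B cells therefore developed with a complete heavy-chain gene, while the other, wild-type allele (Igh+) could still undergo recombination. VDJ-seq, which captures joints from sheared genomic DNA with JH primers and reads which VH gene they hold, was carried out in 8 independent experiments. The series has no other genotype for which Igh joints were measured, so that levels are compared between genes and not between conditions. A list of H3K27ac peaks came from 1 library of pro-B cells with the genotype Rag1 Cre/Cre, which is set beside the VH1 genes further down.

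The RAG recombinase first joins a DH to a JH segment, beginning in lymphoid progenitors, and then a VH gene to the DJH product in pro-B cells. It recognizes a recombination signal sequence beside each segment, made of a heptamer, a spacer and a nonamer. A productive heavy chain stops further VH joining on the second allele, a process known as allelic exclusion, and the distal VH1 genes are known to need contraction of the locus for their joining. A VH gene whose reading frame is interrupted by a stop codon can be joined but cannot give a heavy chain.

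The recombination signals of the VH1 genes were read from the mm9 assembly, because they are what the recombinase acts on. The set shows genes with the same signal and different use, highly used genes, and genes with another heptamer. In the sequences below, which are given 5′ to 3′ on the coding strand, the first 15 bases are those before the heptamer, which are the end of the V exon in all but VH1-1, and the capitals mark the best match to the heptamer and the nonamer.
VH1-18: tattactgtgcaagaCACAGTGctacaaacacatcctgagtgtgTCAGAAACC
VH1-26: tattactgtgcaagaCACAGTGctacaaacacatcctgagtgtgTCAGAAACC
VH1-31: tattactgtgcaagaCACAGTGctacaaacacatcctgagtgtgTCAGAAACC
VH1-86: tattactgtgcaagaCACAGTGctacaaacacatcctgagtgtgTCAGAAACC
VH1-55: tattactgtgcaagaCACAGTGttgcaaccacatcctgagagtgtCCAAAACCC
VH1-19: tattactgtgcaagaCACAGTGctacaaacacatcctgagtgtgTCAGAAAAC
VH1-27: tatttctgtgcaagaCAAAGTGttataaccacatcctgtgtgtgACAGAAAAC
VH1-1: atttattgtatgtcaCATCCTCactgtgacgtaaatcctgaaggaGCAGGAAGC

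The signal of VH1-18, the VH1 gene with the highest mean, lies at chr12:115920805-115920842 and was identical in 5 VH1 genes, which included VH1-26, VH1-31, VH1-21-1 and VH1-86. Their means nevertheless ran from 0% to 0.0197%. The consensus heptamer CACAGTG was present in 62 of the 87 VH1 genes (71.3%) and in 59.6% of all 183 listed VH genes, when the best match to heptamer, a spacer of 22 to 24 bases and nonamer was searched within 60 bases of the listed 3′ end. The nonamer TCAGAAACC occurred in 37 VH1 genes (42.5%) and in 25.1% of all listed VH genes. The consensus nonamer ACAAAAACC was found in 0 VH1 genes and in 6 listed VH genes. The 87 signals held 66 different sequences. At VH1-1, the outermost VH1 gene on the 3′ side, the best match had 8 mismatches to heptamer and nonamer together and lay 19 bases beyond the listed end. It is shown as an example of a gene with no recognizable signal.

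The VH1 genes together accounted for a small share of the joints. The deposited value of a gene was read as its percentage of all VDJH and DJH rearrangements of a library, the unit the study names for its Igh values. The study names it for a pattern from which VH1-72 and VH1-53 had been removed, whereas the deposited columns hold both genes, and whether the total behind both is the same is not given in the sources used here. Summed over the 87 VH1 genes, it was 0.156% in the lowest, 0.189% in the median and 0.223% in the highest library, with a mean of 0.187% ± 0.0219 (SD, n = 8). The 8 sums lay close to each other, while the same libraries held 52.2% to 53.9% of VH1-72, the gene of the pre-rearranged allele, and 2.95% to 3.55% of VH1-53. VH5-2, a proximal gene with a mean of 0.847% ± 0.159 (SD, n = 8), alone exceeded the sum of all 87 VH1 genes. As a share of all VH values other than VH1-72 and VH1-53, the VH1 genes made up 2.91% to 3.85%. This share became 6.78% to 9.60% when the row IGHV1S5, which is not in the gene list and had a mean of 3.32%, was also left out. The files give no number of sequences behind the percentages, and the values recurred at steps. In each library, 8 to 15 VH1 genes shared 1 value, which lay between 0.00225% and 0.00423%, and between 12 and 23 genes exceeded it. In 7 of the 8 libraries smaller values also occurred, and the smallest VH1 value above 0 in these lay between 0.000751% and 0.00143%. Differences of this size between single genes are at the resolution of the files.

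Of the 87 VH1 genes, 57 (65.5%) had a value above 0 in at least 1 library, against 65% of all 183 listed VH genes, and 30 were at 0 in all libraries. A value above 0 in every library was seen for 10 VH1 genes (11.5%), against 23% of the listed VH genes. Between these, 7 genes were above 0 in 1 library, 5 in 2, 10 in 3, 8 in 4, 9 in 5, 5 in 6 and 3 in 7 libraries. A library held between 28 and 39 VH1 genes above 0. The 10 genes found in every library made up 49.5% of the VH1 total, and the 22 genes found in 1 to 3 libraries made up 10.4%. In all 87 VH1 genes, the highest of the 8 values was below the lowest value of VH5-6 (0.0548%), the last of the proximal genes, which was the case for 95.6% of the other 182 listed VH genes.

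VH1-18 had the highest mean of the family. Its values were 0.0114% in the lowest, 0.0152% in the median and 0.0379% in the highest library, with a mean of 0.0197% ± 0.00963 (SD, n = 8). It lies at chr12:115920843-115921136 and carries an open reading frame. VH1-26, at chr12:116026583-116026876, came next with a lowest value of 0.00385%, a median of 0.0143% and a highest value of 0.0253%. The V exons of both genes are 97.2% identical over the 288 bases before the heptamer, and how the study assigned reads that fit several VH genes is not given in the sources used here. VH1-18 was above VH1-26 in 4 of 8 libraries, and their mean difference of 0.00638% was smaller than its SD of 0.0120%.

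VH1-55 ranged from 0.00128% to 0.0225% with a median of 0.00836%. It is the member most like VH1-72, with an identity of 94.5%. VH1-9 ranged from 0.00376% to 0.0135% with a median of 0.00852%, and VH1-54 from 0.00533% to 0.0122% with a median of 0.00723%, which was the narrowest spread relative to the mean among the 10 genes found in every library. The remaining 5 of these genes, VH1-19, VH1-39, VH1-50, VH1-75 and VH1-52, had lowest values between 0.00125% and 0.00385%. In the order of means VH1-18, VH1-26, VH1-55, VH1-9, VH1-19, VH1-39, VH1-54, VH1-50, VH1-75 and VH1-52, no gene differed from its neighbour by more than the SD of their within-library difference. The first and the last of them did, by 0.0148% ± 0.0101 (SD), with VH1-18 higher in 8 of 8 libraries. VH1-76, VH1-69 and VH1-59 were above 0 in 7 libraries, with medians of 0.00608%, 0.00389% and 0.00451%.

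**Figure D1:**
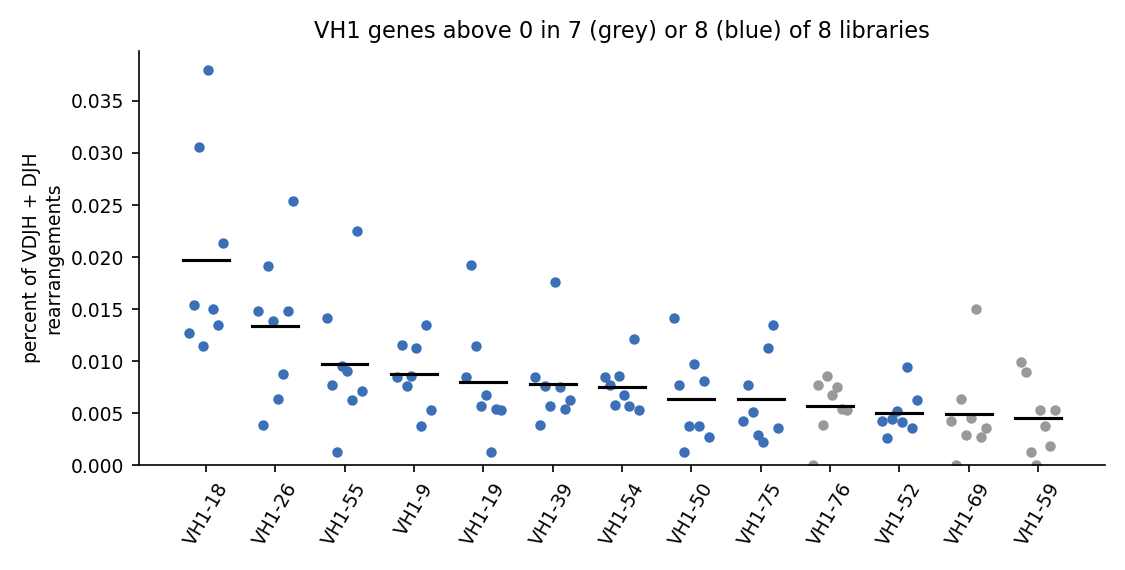
Deposited value, read as a percentage of all VDJH and DJH rearrangements (vertical axis), for the 13 VH1 genes above 0 in 7 or 8 libraries. Each gene has 1 point per library and a line at the mean. The points of VH1-18 lie between 0.0114 and 0.0379, and those of neighbouring genes overlap.

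The order of the VH1 genes was partly shared between libraries. Across all 87 genes, the Spearman correlation between 2 libraries ranged from 0.406 to 0.652 (median 0.569, 28 pairs), and across the 57 genes above 0 in any library from 0.263 to 0.550. These are descriptions across genes, which are not independent replicates, and genes at 0 in both libraries of a pair raise the first range. The gene with the highest value was VH1-26 in 3 libraries, VH1-18 in 2, VH1-19 in 1 and VH1-55 in 1, and VH1-18 and VH1-69 shared the highest value in the remaining library.

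VH1 genes with an open reading frame were used more than those with an interrupted one. The 55 genes with an open frame had a mean of 0.00330% ± 0.000411 per gene, and the 32 with an interrupted frame 0.000185% ± 0.0000929 (SD, n = 8 libraries), which is a 17.8-fold ratio. The lowest library mean of the first set (0.00268%) was above the highest of the second (0.000281%). Of the interrupted genes, 25 of 32 were at 0 in every library, compared with 5 of 55 open genes. The 7 interrupted genes with any value above 0 were VH1-13, VH1-21, VH1-21-1, VH1-25, VH1-27, VH1-32 and VH1-70. VH1-27 had the highest mean of them, 0.00131%, and VH1-25 the highest single value, 0.00502%. The 5 open genes at 0 throughout were VH1-17-1, VH1-30, VH1-48, VH1-62-1 and VH1-79. The RefSeq annotation (GRCm38.p6) classes VH1-17-1, VH1-30 and VH1-48 as pseudogenes, and VH1-62-1 and VH1-79 as V segments. It also classes 4 of the 32 interrupted genes, VH1-19-1, VH1-70, VH1-73 and VH1-86, as V segments and the other 28 as pseudogenes. Split by this class, 56 V segments exceeded 31 pseudogenes by 0.00309% per gene (adjusted p = 0.010, exact test). A frame was taken as open when the last 90 codons before the heptamer had no stop codon in the frame that holds a cysteine codon within the last 5 codons. All other genes were called interrupted. This also covers a coding frame that lacks such a cysteine codon, with or without a stop codon.

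The heptamer separated the VH1 genes further. With the signal searched within 12 bases of the listed end, the 55 genes with the consensus heptamer had a mean of 0.00276% ± 0.000351 per gene and the 32 others 0.00110% ± 0.000225. At 11 VH1 genes the best signal lay more than 12 bases from the listed end, VH1-55 and VH1-69 among them. With the search over 60 bases, which finds it, the 62 genes with the consensus heptamer had 0.00289% ± 0.000311 and the 25 others 0.000323% ± 0.000133, so that the ratio rose from 2.51 to 8.95. Within the 55 open genes and with the wide search, the mean was 0.00371% ± 0.000429 for the 47 genes with the consensus heptamer and 0.000845% ± 0.000382 for the 8 with another heptamer. With the search over 12 bases, the 42 and 13 open genes had 0.00352% ± 0.000476 and 0.00256% ± 0.000602, a ratio of 1.37. All 10 genes above 0 in every library had an open frame and, by the wide search, the consensus heptamer. The 15 interrupted genes with the consensus heptamer had 0.000307% ± 0.000169, and the 17 with neither feature 0.0000770% ± 0.0000830.

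**Figure D2:**
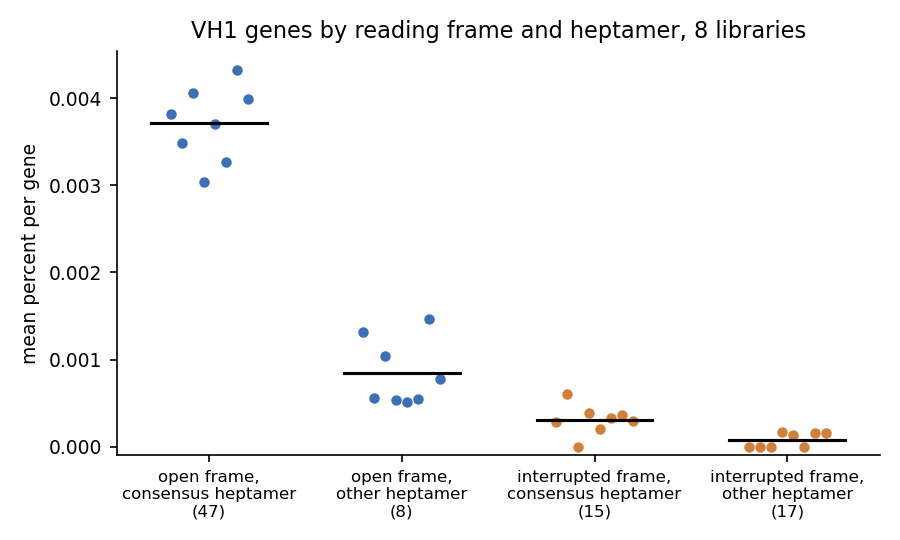
Mean percentage per gene (vertical axis) of VH1 genes grouped by reading frame and heptamer, with 1 point per library, a line at the mean and the number of genes in brackets. The 47 genes with an open frame and the consensus heptamer lie between 0.00304 and 0.00433 and above every other group.

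The identical signal of the 5 genes named above shows how genes with equal signals still differed. VH1-18 and VH1-26 were above 0 in every library. VH1-31, which also has an open frame, was above 0 in 3 libraries with a highest value of 0.00381%, VH1-21-1 in 2 libraries with a highest value of 0.00423%, and VH1-86, the outermost gene on the 5′ side, in 0 libraries. By the definition above, the frames of VH1-21-1 and VH1-86 are interrupted. VH1-50, VH1-59 and VH1-69, which share another signal, had means from 0.00454% to 0.00640%. VH1-62-2 and VH1-71, whose V exons are 100% identical over the compared bases, were above 0 in 3 and 1 libraries, with means of 0.000910% and 0.000239%.

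The comparison of the 3′ and the 5′ side of the family, split at the middle gene, depended on the measure. The 44 genes of the 3′ side had a mean of 0.00213% ± 0.000375 per gene and the 43 of the 5′ side 0.00218% ± 0.000279, and the 3′ side was higher in 3 of 8 libraries (two-sided exact sign-flip permutation test over 8 libraries, p = 0.77, also after adjustment over the 9 comparisons of gene sets). The 5′ side was higher by other measures. The 3′ side minus the 5′ side was -8.03 percentage points for the percentage of genes above 0 (adjusted p = 0.0088, exact test) and -0.17 for the mean of log2(value + 0.001) (adjusted p = 0.018, exact test). It was -0.000579% without near-identical genes, which are at least 97% identical to another listed VH gene (adjusted p = 0.020, exact test), and -0.000647% without VH1-18 and VH1-26, which both lie on the 3′ side (adjusted p = 0.010, exact test). The 5′ side holds more open genes, 32 against 23. Among these open genes the 3′ side was higher, at 0.00385% ± 0.000767 compared with 0.00290% ± 0.000360 (7 of 8 libraries, adjusted p = 0.018, exact test). The open 3′ genes include VH1-18 and VH1-26, with means of 0.0197% and 0.0134%. Whether the 3′ side stays higher among open genes without them was not tested. When the 55 open genes were instead split at their own middle gene, into 28 and 27, the 3′ part was higher by 0.000640% (adjusted p = 0.24, exact test). The rank correlation across genes between the mean and the distance from VH5-1 was 0.086 over all 87 genes and -0.12 over the 55 open genes, as a description.

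**Figure D3:**
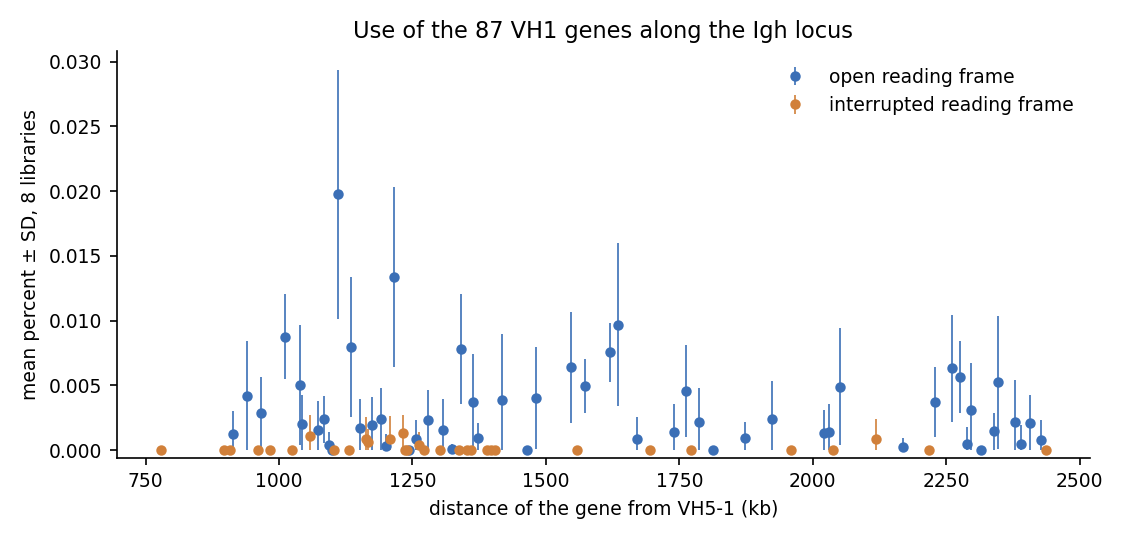
Mean percentage ± SD over 8 libraries (vertical axis) of each of the 87 VH1 genes against its distance from VH5-1 in kb, with open and interrupted reading frames in blue and orange. VH1-18, at 1110 kb, and VH1-26, at 1215 kb, stand highest, and genes near 0 occur along the whole family.

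VH1 genes nearer in sequence to VH1-72 had higher values, and the split at the median showed no detectable difference among genes with an open frame. The V exons of the VH1 genes were 60.5% to 94.5% identical to that of VH1-72, with a median of 84.8%. The 43 genes above the median had a mean of 0.00366% ± 0.000396 per gene and the 44 others 0.000673% ± 0.000268, and the first set was higher in 8 of 8 libraries. Of the 43 genes, 40 had an open frame, compared with 15 of the 44. Split at their own median, the 26 nearer open genes had 0.00326% ± 0.000700 and the 29 others 0.00333% ± 0.000834 (adjusted p = 0.89, exact test). As a description across genes, the rank correlation between mean and identity was 0.63 over all 87 genes and 0.31 over the 55 open genes. The 7 VH1 genes with at least 90% identity were VH1-50, VH1-52, VH1-55, VH1-59, VH1-61, VH1-69 and VH1-74, which all lie on the 5′ side and have an open frame. They had a mean of 0.00519% ± 0.00141 per gene compared with 0.00189% ± 0.000285 for the 80 others, and were higher in 8 of 8 libraries (adjusted p = 0.010, exact test). The ratio of these means was 2.76. Compared with the other 48 open genes alone, which had 0.00302% ± 0.000492, it was 1.72, and the 7 genes were higher in 7 of 8 libraries (adjusted p = 0.020, exact test). Of the genes left out of the family, VH1-62-3, at 99.3% identity, had a mean of 0.00616% and VH1-64, at 95.8%, a mean of 0.00908%, while VH1-62, at 94.8%, was at 0 in all libraries. Whether reads of the pre-rearranged VH1-72 entered the values of the nearest VH1 genes was not tested.

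**Figure D4:**
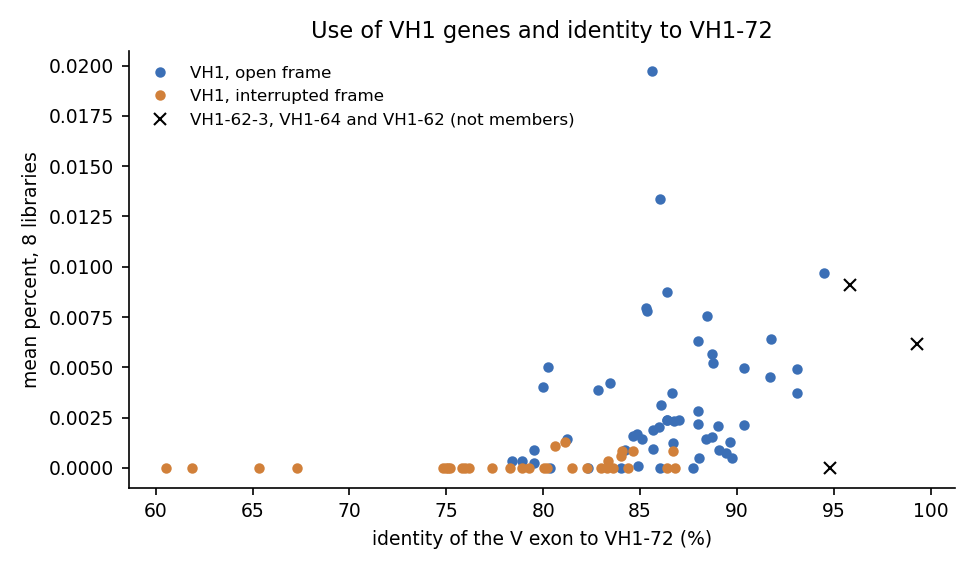
Mean percentage over 8 libraries (vertical axis) of each VH1 gene against the identity of its V exon to that of VH1-72, with open and interrupted frames in blue and orange and the 3 genes left out as crosses. VH1-18 stands highest at 85.6% identity, and the 7 genes above 90% lie below it.

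H3K27ac, a histone mark of active promoters and enhancers, was mapped in 1 library of Rag1 Cre/Cre pro-B cells, which is another cell type and genotype than that of the joints. Of its 696 peaks on chromosome 12, 11 lay within the VH1 region. The 10 VH1 genes within 10 kb of a peak had a mean of 0.00202% ± 0.000587 per gene and the 77 others 0.00217% ± 0.000244 (higher near peaks in 2 of 8 libraries, adjusted p = 0.48, exact test). VH1-11, at 593 bp from a peak, had the highest mean of the 10, 0.00502% ± 0.00463 (SD, n = 8). VH1-58 overlapped a peak and was above 0 in 3 libraries, and VH1-74, at 254 bp, in 6. These 3 genes, the only ones within 2 kb, had a mean of 0.00339% ± 0.00123 compared with 0.00211% ± 0.000244 for the 84 others (adjusted p = 0.0088, exact test). All 3 have an open frame and the consensus heptamer, and the 47 VH1 genes with both features had a mean of 0.00371% ± 0.000429.

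Compared with the other parts of the VH cluster, the VH1 genes were far below the proximal genes. The mean per gene was 0.00215% ± 0.000252 for the 87 VH1 genes and 0.166% ± 0.0232 (SD, n = 8) for the 10 genes from VH5-1 to VH5-6, so that VH1 was at 0.0130 of the proximal level. The VH5 and VH2 genes beyond VH5-6 (23 genes) had 0.00763% ± 0.000787, and the 42 genes of families 3, 4, 6, 7 and 9 to 16 beyond VH5-6 0.00443% ± 0.000530. Of these 42 genes, 12 lie between VH1 genes, so that this set is not a separate part of the cluster. VH6-1, which lies before VH5-6, was counted with the proximal genes. From the joints of these same 8 libraries, the study names VH5-6 as the last of the efficiently recombined proximal genes. The proximal set was therefore already known to be high in these data. VH1 was lower than the proximal genes and than each of these other sets in 8 of 8 libraries. The means rest in part on single genes. VH5-12 alone had 0.0607%, and the median gene of the VH5 and VH2 set beyond VH5-6 was at 0.000482%, below the median VH1 gene at 0.000886%. The median gene was at 0.00376% in families 3, 4, 6, 7 and 9 to 16 and at 0.0804% in the proximal set. With open genes only, VH1 had 0.00330%, those families 0.00534%, the VH5 and VH2 genes beyond VH5-6 0.0125% and the proximal genes 0.317%.

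The VH8 genes, of which 15 of 16 lie between VH1-1 and VH1-86, were the set nearest to VH1 in mean per gene. Their mean was 0.00156% ± 0.000474 per gene over 16 genes, and VH1 was higher in 8 of 8 libraries, by 0.000588% ± 0.000373 (SD). The median VH8 gene was at 0.0000469%, below the median VH1 gene. VH1 was also above VH8 in the percentage of genes above 0, by 17.1 percentage points (adjusted p = 0.0088, exact test), and in the mean of log2(value + 0.001), by 0.37 (adjusted p = 0.010, exact test). The order of the means did not hold in other selections of genes. With open genes only, the 5 VH8 genes were above VH1, at 0.00441% ± 0.00136 compared with 0.00330% ± 0.000411 (VH1 higher in 1 of 8 libraries, adjusted p = 0.047, exact test). Which VH8 genes are open is uncertain. The frame was read back from the best signal match, which lay more than 12 bases from the listed end in 7 of 16 VH8 genes. VH8-2, VH8-6, VH8-9, VH8-13 and VH8-14 were not counted as open, though RefSeq classes them as V segments. At VH8-6, VH8-9 and VH8-13 the match began at -38, -48 and -47 bases from the listed end, inside the exon. VH8 was not split by RefSeq class. Without near-identical genes, both were level, at 0.00175% for VH1 and 0.00179% for VH8 (adjusted p = 0.87, exact test). VH8-8 alone had a mean of 0.0143% ± 0.00700.

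**Figure D5:**
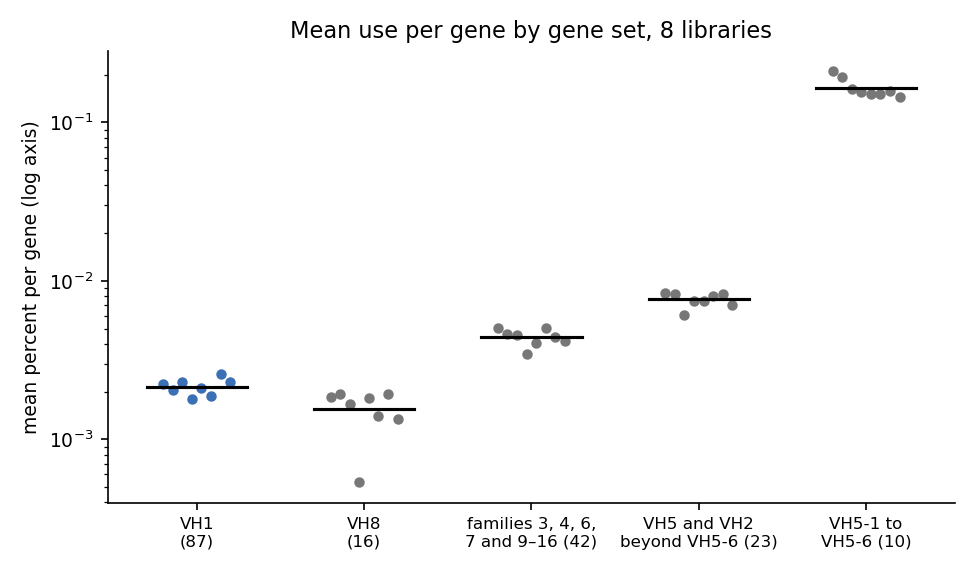
Mean percentage per gene (vertical log axis) of 5 sets of VH genes, with 1 point per library, a line at the mean and the number of genes in brackets. The VH1 points lie between 0.00179 and 0.00257 and below those of the 3 sets on the right, with the VH8 set partly overlapping.

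In the two-sided exact sign-flip permutation test over the 8 libraries, 7 of the 9 comparisons of gene sets (the 4 with other VH genes, reading frame, heptamer and identity to VH1-72) gave p = 0.0078, the smallest that 8 libraries allow, and an adjusted p of 0.010. The test asks whether a difference between gene sets was repeated across libraries and does not treat genes as replicates. For the proximal genes it is not an independent test, because the study had named the end of that set from these same libraries. Its p-value is therefore given as a description only. Separate animals behind the libraries are not named in the labels, so that the p-values measure the spread between these libraries.

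Across the 8 libraries, the VH1 sum and VH1-72 had a Pearson r of -0.62 (exact permutation p = 0.10, adjusted p = 0.21) and a Spearman rho of -0.45 (exact permutation p = 0.27, adjusted p = 0.53). Without the 2 libraries farthest from the median of VH1-72, r was -0.74. Both values are percentages of the same total, and with the values as a share of all VH values other than VH1-72 and VH1-53, r was -0.066. The VH1 sum and the sum of the proximal genes had an r of 0.055 (exact permutation p = 0.89, also after adjustment) and a rho of 0 (exact permutation p = 1), and r was 0.19 without the 2 farthest libraries. No relation was detectable with 8 libraries.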

How the data were processed

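VDJ-seq of immature IgMa B cells sorted from Igh B1-8hi/+ bone marrow gave 8 libraries, and H3K27ac ChIP-seq of pro-B cells gave 1. The authors sheared genomic DNA, ligated adapters with UMI sequences, extended biotinylated JH primers and sequenced paired ends on a MiSeq instrument. The deposited values, 1 per VH gene and library, were read as percentages of all VDJH and DJH rearrangements and used as they stand. They include VH1-72 and VH1-53. The peak list on mm9 was used as deposited by the authors. The aligner of the VDJ-seq reads and the treatment of reads that fit several genes are not given in the sources used here. The files give no number of reads or sequences, so that no counting intervals are given. The Igk and Hi-C files of the series were not used here.

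Positions of VH genes came from the study's list, and sequences from NCBIM37 (mm9). V exons were aligned over 288 bases with edlib 1.3.9.post1. Genes of at least 97% identity to another listed VH gene counted as near-identical. Gene sets were compared within libraries by two-sided exact sign-flip permutation tests in Python 3.11.15 with scipy 1.17.1, with Benjamini-Hochberg adjustment over 9 comparisons and, for correlations, over 2. The permutation script was tested on simulated data. The 8 libraries differ from each other, with no identical pair among 28. The genes named are those above 0 in 7 or 8 libraries, the 10 highest, the outermost by position, the highest on each side of a split and reference genes. Others were named after their values were seen: VH1-13, VH1-21, VH1-21-1, VH1-25, VH1-32, VH1-70, VH1-19-1, VH1-73, VH1-17-1, VH1-30, VH1-48, VH1-62-1, VH1-79, VH1-31, VH1-62-2, VH1-71, VH1-58, VH1-74, VH1-61, VH8-8, VH5-12, and the row IGHV1S5. The members and lists were chosen with earlier results of these data known. Alternatives were another denominator, kept or left-out genes, log2 of the value plus 0.001, the percentage of genes above 0, other windows and classes, and each library left out in turn. Chosen after the data were seen were the wide signal search, the identity threshold of 90% for all and for open genes, the open genes of each side of the family, open genes in both sets, the denominator without IGHV1S5 and the sets without VH1-18 and VH1-26.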

Additional observations from a re-analysis of the deposited data

Results flagged for a closer look

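In 2 of the 27 values examined, 1 of the 8 libraries stood apart from the rest. VH1-39 had a highest value of 0.0176%, followed by 0.00846%, and the gap took 0.666 of its whole range. VH1-69 had a highest value of 0.0151%, followed by 0.00638%, with a gap of 0.576 of the range. Chance gives about 1 such case in 20. The 2 cases came from different libraries.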

How the results depend on the processing

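Gene sets were compared within each library, so that each library was its own pair. Between groups of libraries, no paired analysis was possible because there is no second group of Igh libraries whose libraries could be matched by replicate number with these. Of the values with a test, 84 of 88 kept their direction and side of the threshold when 1 library was left out, and 52 of 68 did under the other settings, where 11 of 68 turned their direction. The VH1 sum became 3.31% of all VH values without VH1-72 and VH1-53, 8.09% also without IGHV1S5, and 0.119% without near-identical genes, VH1-18 and VH1-26 among them. Leaving out each library in turn, it ran from 0.182% to 0.192%.

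The difference between VH1 and VH8 became -0.0000317% without near-identical genes, -0.00112% with open genes only, and 0.000250% without VH1-18 and VH1-26 (adjusted p = 0.088, exact test). Which VH8 genes are open is uncertain, as given above. The 3′ side minus the 5′ side was -0.000579% without near-identical genes, -0.000647% without VH1-18 and VH1-26, -0.17 on the log2 scale and -8.03 percentage points for genes above 0, each past the threshold, and 0.000640% with open genes split anew and 0.000947% with the open genes of the same sides. Leaving out each library, it ran from -0.000131% to 0.0000724%. The difference by identity to VH1-72 was -0.0000657% with open genes only. The difference by nearby H3K27ac was 0.000288% without near-identical genes, 0.0741 on the log2 scale, 5.21 percentage points for genes above 0, 0.00128% with 2 kb, past the threshold, and 0.000161% with 50 kb. The causes were not tested. The correlation of VH1 with proximal genes was -0.32 with the other denominator, and -0.080 to 0.19 with each library left out. That of VH1 with VH1-72 was -0.066 and -0.83 to -0.44. The missing read numbers limit genes near the smallest value above 0.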
